A study of Mus musculus with 10 samples.

Results

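A set of 10 mouse genes of the rapid response to growth signals and stress was followed tumor by tumor: *Fos*, *Fosb*, *Jun*, *Junb*, *Egr1*, *Atf3*, *Ier2*, *Dusp1*, *Hspa1a* and *Hspa1b*. They were taken by symbol from the deposited tables, where all 10 were found among 35275 listed genes. RNA-seq had been performed on 10 cutaneous squamous cell carcinomas, 5 with the genotype label LDHA-/- (*Ldha*-null) and 5 labelled wild type, from mice of mixed C57BL6 and FVB background and both sexes. The work asked whether lactate dehydrogenase A is needed for skin tumors that arise from hair follicle stem cells. In its models, *Ldha* was deleted in those cells by an inducible Cre (*K15-CrePR* or *Lgr5-CreER*), and tumors were driven either genetically, with floxed *p53* among the alleles, or by DMBA/TPA. Which model gave the sequenced tumors is not stated, and some null tumors of the study were mosaic for the deletion. The series gives 5 mice per genotype where the text of the study gives 6 tumors, and the ages and harvest times given for the models are not tied to the sequenced tumors. No interval between excision and Trizol was given in the sources used here.

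Immediate early genes are transcribed within minutes of a signal, without new protein synthesis, and their messages decay quickly. Growth factors switch them on through Ras, ERK and the serum response factor with its Elk partners, and wounding, hypoxia, cooling and tissue dissociation switch many of them on as well. Fos and Jun proteins pair as the transcription factor AP-1, which is long known for its role in skin papillomas and carcinomas. The inducible Hsp70 genes are turned on by heat shock factor 1 when proteins unfold, and they have no introns to delay the message.

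The sequences just upstream of these genes are shown because the 2 Hsp70 genes, the pair of members with the highest r over the tumors, share theirs almost base for base, and those of 4 other members are set beside them. RefSeq promoters (build GRCm38.p6, the assembly of mm10) were used for 8 of the 10 members, and those of *Egr1* and *Ier2* were left out. For the 8, the 250 bases before each start were searched on both strands. Capitals mark GAANNTTC (a pair of heat shock units), CCAAT on either strand, the TATA box TATAAA, and TGACGTCA (the cAMP response element). Each sequence reads 5′ to 3′ on the strand of its gene.
*Hspa1a* (chr17:34972157-34972306, minus strand, ending at the base before the start): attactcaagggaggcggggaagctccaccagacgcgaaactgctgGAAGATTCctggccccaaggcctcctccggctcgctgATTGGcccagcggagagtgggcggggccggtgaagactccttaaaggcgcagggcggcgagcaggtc
*Hspa1b* (chr17:34959239-34959388, minus strand, ending at the base before the start): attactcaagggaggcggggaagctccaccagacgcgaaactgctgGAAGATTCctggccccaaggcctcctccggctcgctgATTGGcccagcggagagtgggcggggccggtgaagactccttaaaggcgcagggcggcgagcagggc
*Jun* (chr4:95052223-95052372, minus strand, ending at the base before the start): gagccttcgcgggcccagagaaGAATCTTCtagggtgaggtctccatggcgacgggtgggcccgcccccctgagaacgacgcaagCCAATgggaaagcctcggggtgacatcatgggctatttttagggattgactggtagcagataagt
*Junb* (chr8:84978749-84978848, minus strand, ending at the base before the start): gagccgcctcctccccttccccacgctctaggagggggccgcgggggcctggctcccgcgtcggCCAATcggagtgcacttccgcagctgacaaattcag
*Fos* (chr12:85473790-85473889, plus strand, ending at the base before the start): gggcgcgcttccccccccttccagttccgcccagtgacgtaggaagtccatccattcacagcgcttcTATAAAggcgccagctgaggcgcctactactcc
*Dusp1* (chr17:26508522-26508622, minus strand, ending 50 bases before the RefSeq start): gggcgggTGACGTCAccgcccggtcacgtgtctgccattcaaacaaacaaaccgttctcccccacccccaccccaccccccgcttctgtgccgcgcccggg

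The *Hspa1a* and *Hspa1b* promoters were alike at 247 of 250 positions (98.8%), and at 149 of the 150 shown. In both, GAANNTTC lay 104 to 97 bases before the start and the reverse CCAAT box 67 to 63 bases before it. *Jun* also held GAANNTTC, at 128 to 121 bases, so 3 of the 8 promoters had it, where 6.69% of 32851 mouse promoters do. The 2 Hsp70 promoters are near copies and are not separate instances. TGACGTCA was found in *Dusp1* alone of the 8 (1.55% of all promoters), and TATAAA in *Fos* alone (12.4%). CCAAT stood in *Jun*, *Junb*, *Hspa1a* and *Hspa1b* (33.8% of all promoters). The CArG box, TGANTCA (the AP-1 element) and TTCNNGAA had no match in the 8 windows, against 1.47%, 6.75% and 7.17% of all promoters. Only exact matches within 250 bases of the start were sought, and *Egr1* and *Ier2* were not searched. Sites farther upstream, or with other letters, were thus not covered. These letters describe the windows and are not measured binding sites.

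Levels are given as the deposited FPKM, fragments scaled to transcript length and to library depth, from 12969508 to 17694201 counted fragments per tumor. Every library was named carcinoma cells by its label but came from whole fresh tumor with no sorting described. *Krt14*, the keratin of basal keratinocytes, was at 28399 FPKM for *Ldha*-null tumor 3 and 28691 in wild-type tumor 5, and at 138 to 4195 in the other tumors. *Ckm*, muscle creatine kinase, was at 5646 FPKM for *Ldha*-null tumor 1 and at 1.13 to 4.19 elsewhere. *Vim*, the mesenchymal filament vimentin, was at 198, 869 and 1485 FPKM in these 3 tumors and at 4101 to 6043 in the other 7. Several results that turn on these 3 tumors are therefore also given for the other 7. *Ldha* RNA itself spanned 246 to 1883 FPKM under the *Ldha*-null label and 340 to 2824 in wild-type tumors, with overlapping groups, so it did not check the labels. In bulk tumors, fewer cells of a type and less RNA per cell cannot be told apart.

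All 10 members were detected in every tumor and passed the filter on low counts, and the order of their levels was loose. By median, *Junb* stood highest at 85.6 FPKM, followed by *Dusp1* at 78.5, *Ier2* at 53.5, *Jun* at 42.2 and *Fos* at 38.9. *Hspa1b* followed at 21.4, then *Egr1* at 14.2, *Atf3* at 10.4, *Fosb* at 3.66 and *Hspa1a* at 2.98. The order was not kept by most neighbors: *Junb* exceeded *Dusp1* in 3 of 10 tumors, and *Jun* exceeded *Fos* and *Fosb* exceeded *Hspa1a* in 5 each. On the deposited scale, the clearest steps were *Egr1* over *Atf3* and *Atf3* over *Fosb*, each in 9 of 10. The listed gene length gave the FPKM of *Fosb*, *Jun*, *Junb*, *Ier2*, *Hspa1a* and *Hspa1b*. For *Fos*, *Atf3*, *Dusp1* and *Egr1* the listed length was longer than the length behind the FPKM by 1.93, 1.59, 1.35 and 1.19 times. With the listed length, *Fos* had a median of 20.2 on the same scale, just below *Hspa1b*, and *Dusp1* one of 58.2, with *Junb* above *Dusp1* in 8 of 10 tumors. *Atf3* then had a median of 6.57 and exceeded *Fosb* in 6 of 10 tumors, while *Egr1* still exceeded *Atf3* in 9 of 10. The length was the same in every tumor (0 of 12441 genes differed by over 1%), so comparisons of a gene between tumors do not depend on it.

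**Figure D1:**
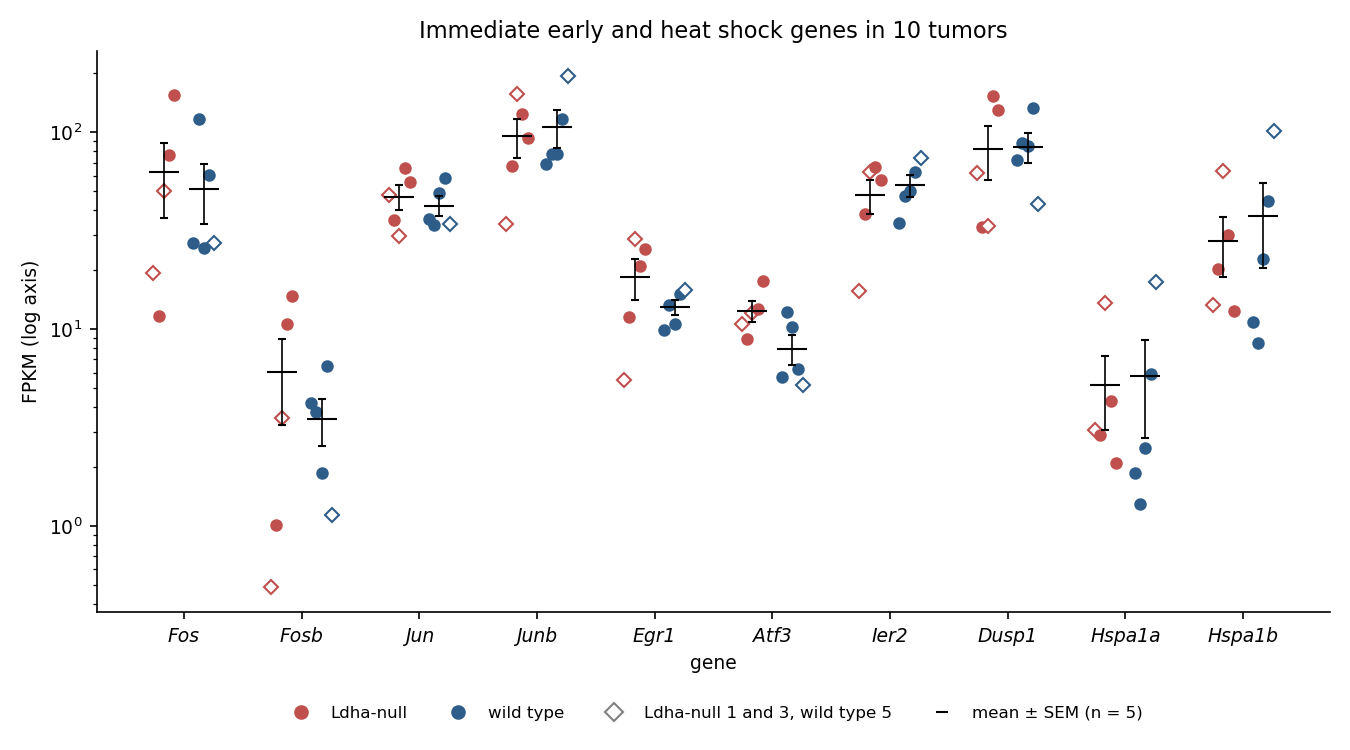
Level of each of the 10 genes in each tumor, in FPKM on a log axis. Red points are *Ldha*-null and blue points wild-type tumors, open diamonds are the 3 tumors low in *Vim*, and bars give the mean ± SEM of 5 tumors. The points of the genotypes overlap for every gene, and *Fosb*, *Hspa1a*, *Fos* and *Hspa1b* spread over the widest range.

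The AP-1 subunits ranged from the most to the least variable of the members. *Fos*, the inducible partner of the Jun proteins (ENSMUSG00000021250, mm10 chromosome 12, 85473890 to 85477273, plus strand), was at 19.2, 11.6, 50.4, 76.0 and 154 FPKM across *Ldha*-null tumors 1 to 5. It was at 27.4, 117, 25.7, 60.3 and 27.4 FPKM among wild-type tumors 1 to 5. A high *Fos* level was thus found in single tumors of both labels, *Ldha*-null 5 and wild-type 2, and the highest value was 13.3 times the lowest. *Fosb*, a close relative of *Fos* (ENSMUSG00000003545, chromosome 7, 19302721 to 19310045, minus strand), was at 0.490, 1.0, 3.52, 10.6 and 14.7 FPKM across the *Ldha*-null group and at 4.19, 3.79, 1.85, 6.48 and 1.14 FPKM among the wild types. The lowest of these rests on 32 counted fragments and the highest on 910. *Fosb* had the widest range of the 10 genes, 30.0 times, with its extremes both among *Ldha*-null tumors, and wild-type tumor 2 was high in *Fos* and not in *Fosb*. On the deposited scale, *Fos* exceeded *Fosb* in 10 of 10 tumors, by 6.54 to 39.1 times.

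*Jun*, which can form AP-1 on its own or with Fos proteins (ENSMUSG00000052684, chromosome 4, 95049034 to 95052222, minus strand), varied least. It was at 48.0, 35.6, 29.7, 66.0 and 55.6 FPKM across the *Ldha*-null group and at 36.3, 33.8, 49.0, 58.2 and 33.9 FPKM among the wild types. The highest value was 2.22 times the lowest, and the SD of *Jun* over the tumors was larger than that of 32.9% of the tested genes. *Jun* overlaps the antisense gene *Junos* along 689 of its 3189 bases, and no source describes the libraries as keeping strand, so reads of that stretch cannot be told apart. *Junb*, a Jun protein that can restrain *Jun* (ENSMUSG00000052837, chromosome 8, 84976909 to 84978748, minus strand), was at 34.1, 67.4, 157, 124 and 93.6 FPKM under the *Ldha*-null label and at 68.4, 77.6, 77.7, 116 and 192 FPKM among the wild types. *Ldha*-null tumor 1 was lowest, and wild-type tumor 5 and *Ldha*-null tumor 3, the tumors rich in *Krt14*, were highest. *Junb* exceeded *Jun* in 9 of 10 tumors, with a median ratio of 1.89, and *Ldha*-null tumor 1 was the exception at 0.709. The other AP-1 genes, named here after their values were seen, reached like levels: *Jund* spanned 26.5 to 121 FPKM, *Fosl1* 3.47 to 105 and *Fosl2* 7.13 to 33.8. *Fosl1* and *Fosl2* were lowest in *Ldha*-null tumor 1, whereas *Jund* was lowest in *Ldha*-null tumor 3.

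*Egr1*, a zinc finger factor of the serum response (ENSMUSG00000038418, chromosome 18, 34859823 to 34864984, plus strand), was at 5.52, 11.4, 28.7, 20.9 and 25.4 FPKM across the *Ldha*-null group. In wild-type tumors it was at 9.84, 13.2, 10.6, 15.1 and 15.7 FPKM, so the wild-type range lay inside the *Ldha*-null range. *Ier2*, a nuclear protein of the early response (ENSMUSG00000053560, chromosome 8, 84661331 to 84662852, minus strand), was at 15.6, 38.1, 62.7, 66.2 and 56.7 FPKM across the *Ldha*-null group and at 34.7, 47.3, 50.3, 62.5 and 73.6 FPKM among the wild types. *Ldha*-null tumor 1 was lowest in both genes, and 9 of 10 tumors held *Ier2* within 34.7 to 73.6 FPKM. *Dusp1*, the phosphatase that switches MAP kinases off and is itself induced by them (ENSMUSG00000024190, chromosome 17, 26505590 to 26508519, minus strand), was at 62.3, 32.8, 33.5, 152 and 129 FPKM under the *Ldha*-null label and at 72.4, 87.5, 84.7, 133 and 43.2 FPKM among the wild types. The lowest *Dusp1* levels belonged to *Ldha*-null tumors 2 and 3 with wild-type tumor 5, and the highest to *Ldha*-null tumor 4.

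*Hspa1a* and *Hspa1b* encode the stress-induced Hsp70, which refolds damaged proteins, from neighboring genes 9951 bases apart on chromosome 17. *Hspa1a* (ENSMUSG00000091971, 34969190 to 34972156, minus strand) was at 3.08, 2.89, 13.5, 4.31 and 2.08 FPKM across the *Ldha*-null group and at 1.86, 1.29, 2.49, 5.90 and 17.3 FPKM among the wild types. *Hspa1b* (ENSMUSG00000090877, 34956436 to 34959238, minus strand) was at 13.3, 20.3, 63.3, 29.9 and 12.3 FPKM across the *Ldha*-null group and at 10.9, 8.45, 22.6, 44.4 and 102 FPKM among the wild types. Both were highest in wild-type tumor 5, followed by *Ldha*-null tumor 3 and then wild-type tumor 4, which was closer to *Ldha*-null tumor 3 in *Hspa1b* than in *Hspa1a*. *Hspa1b* exceeded *Hspa1a* in every tumor, by 4.31 to 9.04 times, although the genes are near copies. Of the 100-base windows of the *Hspa1a* transcript, 47.1% occur unchanged in that of *Hspa1b*, so the split of reads between the genes is uncertain. *Gm20481*, on the opposite strand, overlaps 2225 of the 2967 bases of *Hspa1a* and was listed at 0 in all 10 tumors. Counting in union mode drops fragments that touch the exons of more than 1 gene. How many fragments of *Hspa1a* were dropped in this way was not tested.

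The high and low values did not fall in the same tumors for all members. *Ldha*-null tumor 4 was among the 3 highest tumors for 8 of the 10 genes, all but *Hspa1a* and *Hspa1b*. *Ldha*-null tumor 5 held the highest value of 3 genes (*Fos*, *Fosb* and *Atf3*), and wild-type tumor 5 that of 4 (*Junb*, *Ier2*, *Hspa1a* and *Hspa1b*). *Ldha*-null tumor 1, with the muscle RNA, held the lowest value of 4 genes (*Fosb*, *Junb*, *Egr1* and *Ier2*). *Ldha*-null tumor 2 was among the 3 lowest for 5 genes. These ranks, like the levels printed above, are on deposited FPKM, scaled to length and depth only. The main log2 fold changes and r values below use counts that were also adjusted by TMM scaling factors. The part of the muscle RNA in the low FPKM values of *Ldha*-null tumor 1 was not tested. The spread of *Fosb*, *Hspa1a*, *Hspa1b* and *Fos* over the tumors exceeded that of 87.8%, 87.1%, 85.0% and 79.6% of the 15176 tested genes. The other 6 members lay between 32.9% and 60.7%.

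None of the 10 genes differed between the genotypes past the test. In edgeR's quasi-likelihood test, 0 of 10 members had an adjusted p under 0.05, where the background over all 15176 genes was 0 genes, or 0.0%, and the smallest adjusted p was 0.999. At an unadjusted p under 0.05, 1 member was higher in the tumors labelled *Ldha*-null and 0 were lower. The background is 541 genes (3.56%) higher and 60 genes (0.395%) lower. That background leaned on *Ldha*-null tumor 1, the tumor with muscle RNA: 601 genes in either direction became 194 without it. The fitted log2 fold change was above 0 for 6 members and below 0 for 4, with a median of 0.20, while that of all tested genes was 0.02. The genotype groups did not separate for any member, as they did for 28 of all genes (0.185%).

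*Atf3*, a stress-induced factor of the ATF and CREB family (ENSMUSG00000026628, chromosome 1, 191170296 to 191183340, minus strand), came nearest. It was at 10.6, 8.84, 12.1, 12.6 and 17.6 FPKM across *Ldha*-null tumors 1 to 5 and at 5.72, 12.2, 10.2, 6.28 and 5.17 FPKM among the wild types. The lowest *Atf3* levels were those of wild-type tumors 1, 4 and 5, and wild-type tumors 2 and 3 lay inside the *Ldha*-null range. Means were 12.3 ± 1.46 FPKM under the *Ldha*-null label and 7.92 ± 1.39 FPKM among the wild types (SEM over 5 tumors each). The log2 fold change was 0.83 (standard error 0.32, 95% interval 0.12 to 1.55), with an unadjusted p of 0.0264 and an adjusted p of 0.999 in edgeR. The exact permutation p was 0.0317 (two-sided), where the smallest possible p of the design is 0.00794. Over the 19 alternative analyses the adjusted p of *Atf3* was at least 0.705, and its unadjusted p was under 0.05 in 13. Without the 3 tumors low in *Vim* its log2 fold change was 0.52.

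The intervals of the other members were wide. *Egr1* averaged 18.4 ± 4.34 FPKM under the *Ldha*-null label and 12.9 ± 1.18 FPKM among the wild types, a log2 fold change of 0.59 (95% interval -0.19 to 1.36). *Fosb* averaged 6.06 ± 2.81 and 3.49 ± 0.942 FPKM, a log2 fold change of 0.76 (-0.91 to 2.42), and *Fos* 62.3 ± 25.7 and 51.5 ± 17.5 FPKM, one of 0.31 (-1.06 to 1.68). *Jun* had a log2 fold change of 0.35 (-0.33 to 1.03), *Dusp1* of 0.09 (-0.89 to 1.07), *Junb* of -0.08 (-1.02 to 0.85) and *Ier2* of -0.10 (-0.82 to 0.61). *Hspa1a* stood at -0.005 (-1.82 to 1.81) and *Hspa1b* at -0.32 (-1.97 to 1.32). For the Hsp70 genes, single tumors set the sign: *Hspa1a* moved to 1.10 without wild-type tumor 5 and to -0.78 without *Ldha*-null tumor 3, and *Hspa1b* to 0.58 and -0.94. *Fos* changed sign, to -0.18, without *Ldha*-null tumor 5. *Junb* and *Ier2* moved to 0.32 and 0.10 without wild-type tumor 5, and *Dusp1* to -0.16 without *Ldha*-null tumor 4.

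**Figure D2:**
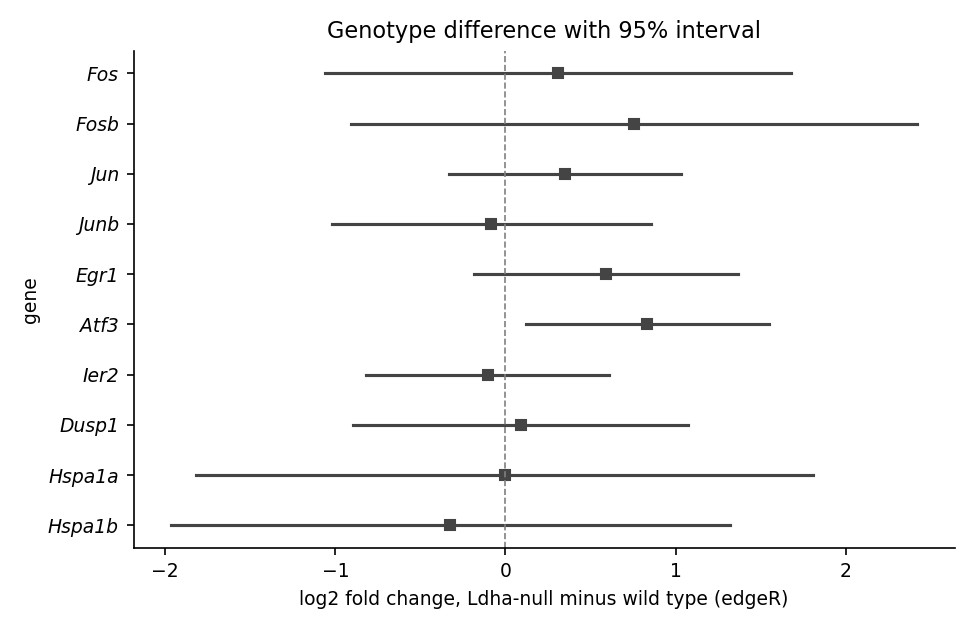
Fitted log2 fold change of each gene (squares, *Ldha*-null minus wild type, edgeR) with its 95% interval (lines), 5 tumors per genotype. The interval of *Atf3*, 0.12 to 1.55, is the only one of the 10 that leaves out 0, and its adjusted p is 0.999.

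The wider early response held no gene that passed either. Of 32 other immediate early genes, 31 were tested, 0 passed, and 0 had an unadjusted p under 0.05 in edgeR, with 14 log2 fold changes above 0, 17 below and a median of -0.07. The smallest unadjusted p belonged to *Nr4a3*, a nuclear receptor, at 1.77 ± 0.391 FPKM under the *Ldha*-null label and 1.06 ± 0.173 FPKM among the wild types (log2 fold change 0.91, -0.03 to 1.84). *Btg2*, an antiproliferative gene, had a log2 fold change of 0.45 (-0.11 to 1.01), and *Nr4a2*, a sister of *Nr4a3*, one of -1.02 (-2.33 to 0.28), with the opposite sign. Of 12 genes that ERK signalling induces to report or limit itself, such as ETS factors and dual-specificity phosphatases, 0 passed and 0 had an unadjusted p under 0.05 in edgeR, with 3 values above 0, 9 below and a median of -0.30. *Etv4*, an ETS factor, was at 48.1 ± 10.2 FPKM under the *Ldha*-null label and 75.3 ± 6.02 FPKM among the wild types (log2 fold change -0.60, -1.33 to 0.13), with 9.93 FPKM for *Ldha*-null tumor 1. *Spred2*, which restrains Ras signalling, and *Dusp4*, an ERK phosphatase, had log2 fold changes of -0.55 (-1.39 to 0.30) and -0.61 (-2.04 to 0.82). Of 12 upstream regulators, the kinases and serum response partners that switch these genes on, 0 passed and 0 had an unadjusted p under 0.05 in edgeR, with 6 values on each side of 0. *Rps6ka3*, a kinase below ERK, had the smallest p among them, with a log2 fold change of 0.37 (-0.14 to 0.88).

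Among 21 other heat shock and chaperone genes, 0 passed in edgeR, 14 log2 fold changes were above 0 and 7 below, and the median was 0.07. At an unadjusted p under 0.05, 2 were higher in the tumors labelled *Ldha*-null. *Hspa1l*, a relative of the inducible Hsp70 genes, was at 1.19 FPKM for *Ldha*-null tumor 1 and at 0.141 to 0.296 FPKM across *Ldha*-null tumors 2 to 5, against 0.0686 to 0.248 FPKM among the wild types. *Cryab*, a small heat shock protein abundant in muscle, was at 1216 FPKM for *Ldha*-null tumor 1 and spanned 8.58 to 62.5 FPKM elsewhere. *Hspb8*, another small heat shock protein of muscle, was at 209 FPKM for *Ldha*-null tumor 1 and spanned 21.2 to 58.0 FPKM elsewhere. The highest level of each of these 3 genes was in *Ldha*-null tumor 1, where 7 skeletal muscle markers summed to 85460 FPKM, against 34.5 to 204 FPKM in the others. The part of that muscle RNA in these differences was not tested.

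Covariation was then measured over the tumors, on log2 CPM (depth-scaled counts) adjusted by TMM, for all 45 pairs of members. Of these, 4 pairs (8.89%) had a Pearson r of at least 0.8, where 2.73% of all pairs of tested genes do. The same 4 had an adjusted p under 0.05 over the 45 pairs (two-sided permutation test, 100000 resamples). They joined *Junb* with *Ier2*, *Hspa1a* with *Hspa1b*, and *Junb* with each Hsp70 gene, and all but the Hsp70 pair are named after their values were seen. The Hsp70 genes are near copies with an uncertain split of reads, so the pairs that hold them are not separate instances. Of all 45 pairs, 29 had a positive r and 16 a negative r, and the median was 0.212. Over all 10 tumors, the members did not rise and fall as a single block. No r was computed over the 5 tumors of a genotype alone, but 6 pairs reached 0.8 on deviations from the genotype means.

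*Junb* and *Ier2* ordered the tumors alike. Pearson r was 0.931 (adjusted p = 0.00045, permutation test, 10 tumors) and Spearman rho 1.0 (adjusted p = 0.00045, permutation test), since the ranks of the 10 tumors on log2 CPM were the same for both genes. In FPKM a few neighbors swapped places, *Ldha*-null tumor 2 with wild-type tumor 1 and *Ldha*-null tumor 3 with *Ldha*-null tumor 4. Without *Ldha*-null tumor 3 and wild-type tumor 5, the farthest from the *Junb* median, r was 0.925, and over the 7 tumors rich in *Vim* it was 0.941. With 7 tumors the adjusted p was 0.0744 (exact permutation test). *Ier2* was the 9th of 15175 genes in likeness to *Junb*. The genes lie on chromosome 8 with 314056 bases between them. *Egr1* lay near this pair without passing, with r of 0.761 to *Junb* and 0.769 to *Ier2* (adjusted p = 0.0636 each, permutation test), values noticed in the full set of pairs.

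*Hspa1a* and *Hspa1b* gave the highest r of the 45 pairs, 0.973, with rho of 0.976 (adjusted p = 0.00045 and 0.0009, permutation test). The relation held without *Ldha*-null tumor 3 and wild-type tumor 5 (r of 0.931) and over the 7 tumors (r of 0.976, adjusted p = 0.0268, exact permutation test). *Hspa1b* was the 3rd gene in likeness to *Hspa1a*. The near-identical promoters printed above stand beside this pair, and so do the shared transcript windows, through which reads can be split between the genes. The part of shared reads in the correlation was not tested.

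*Junb* and the Hsp70 genes gave r of 0.839 with *Hspa1a* and 0.863 with *Hspa1b* (adjusted p = 0.0333 and 0.0219, permutation test), with rho of 0.636 and 0.733 (adjusted p = 0.229 and 0.151, permutation test). Without *Ldha*-null tumor 3 and wild-type tumor 5, both rich in *Krt14*, r was 0.421 and 0.573. Without *Ldha*-null tumor 1 as well, over the 7 tumors, r was 0.767 and 0.722 (adjusted p = 0.172 and 0.212, exact permutation test). Leaving out each tumor in turn gave r of 0.747 to 0.944 with *Hspa1a* and 0.779 to 0.912 with *Hspa1b*, the lowest without wild-type tumor 5 and the highest without *Ldha*-null tumor 1. With 1 tumor fewer, the *Hspa1a* pair did not pass the threshold without *Ldha*-null tumors 2, 3 and 4 (r of 0.845, 0.779 and 0.850, adjusted p = 0.0501, 0.156 and 0.077, exact permutation test) or wild-type tumors 1, 3, 4 and 5 (r of 0.822, 0.833, 0.836 and 0.747, adjusted p = 0.0625, 0.0634, 0.105 and 0.118, exact permutation test). The *Hspa1b* pair did not pass it without *Ldha*-null tumors 3 and 4 (r of 0.825 and 0.868, adjusted p = 0.128 and 0.0506, exact permutation test) or wild-type tumors 1, 4 and 5 (r of 0.847, 0.860 and 0.779, adjusted p = 0.0625, 0.103 and 0.116, exact permutation test). *Ldha*-null tumor 3 and wild-type tumor 5 also had the most keratinocyte marker RNA. Their 7 keratinocyte markers summed to 41247 and 42064 FPKM, against 868 to 5801 FPKM in the other *Ldha*-null and 211 to 3658 FPKM in the other wild-type tumors. With *Hspa1a*, the 7 markers had r from 0.672 to 0.767 over all tumors, these 2 included. The part of keratinocyte content in these relations was not tested.

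**Figure D3:**
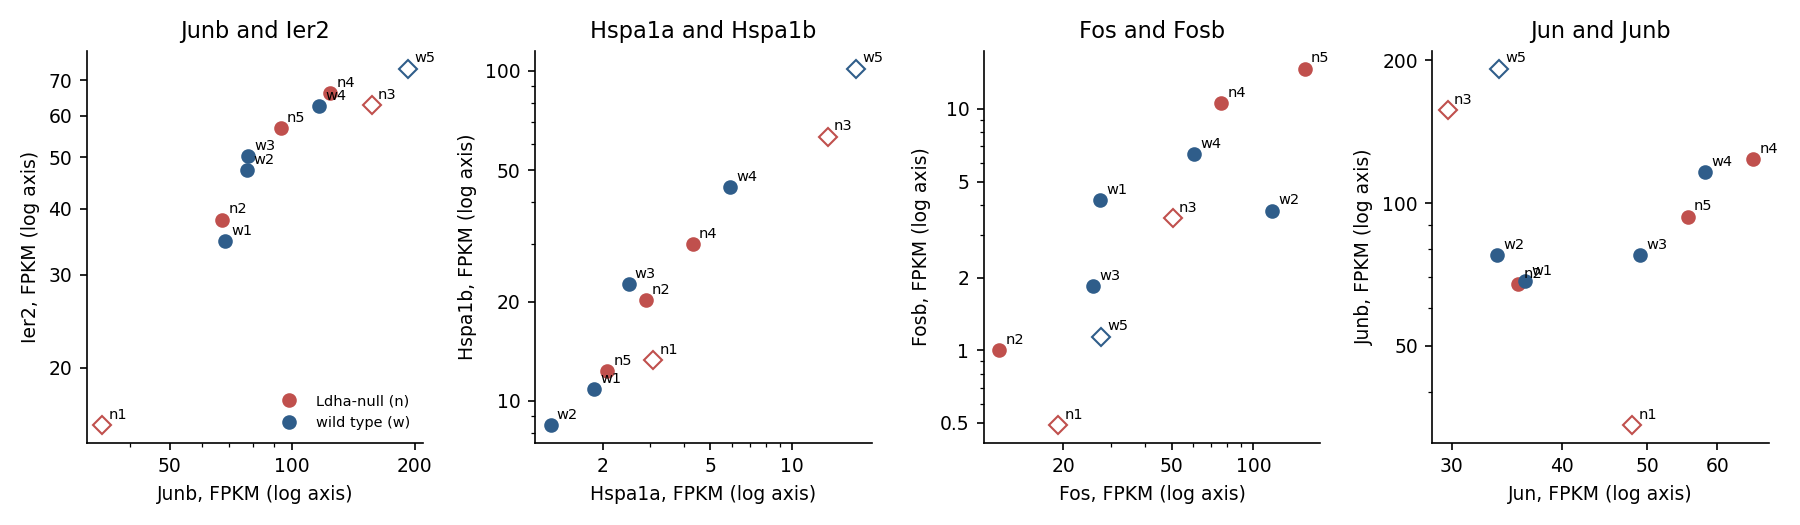
Level of 4 pairs of genes in each tumor, in FPKM on log axes (red n1 to n5, *Ldha*-null, and blue w1 to w5, wild type, with open diamonds for the 3 tumors low in *Vim*). *Junb* with *Ier2* and *Hspa1a* with *Hspa1b* lie along a line, *Fos* with *Fosb* scatters more, and *Jun* with *Junb* lies along a line in the 7 filled points alone.

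*Fos* was most like *Fosb* among the members, with r of 0.774 and rho of 0.697, which did not pass (adjusted p = 0.0636 and 0.173, permutation test). *Fosb* was the 7th of 15175 genes in likeness to *Fos*. The r was 0.594 without *Ldha*-null tumors 2 and 5 and 0.841 over the 7 tumors. It passed without *Ldha*-null tumor 1 (r of 0.820, adjusted p = 0.0486, exact permutation test) and without wild-type tumor 2 (0.833, adjusted p = 0.0473, exact permutation test). With *Dusp1*, *Egr1* and *Atf3*, *Fos* had r of 0.589, 0.559 and 0.426 (adjusted p = 0.306, 0.343 and 0.543, permutation test). With *Ier2*, *Junb* and *Jun*, r was 0.342, 0.212 and 0.155 (adjusted p = 0.743, 0.846 and 0.854, permutation test). Between *Fos* and the Hsp70 genes r was below 0, at -0.127 for *Hspa1a* and -0.174 for *Hspa1b* (adjusted p = 0.854 and 0.846, permutation test). The lowest r of all pairs was that of *Dusp1* with *Hspa1a*, -0.292 (adjusted p = 0.838, permutation test).

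Several pairs looked different once the 3 tumors low in *Vim* were left out. Over the other 7 tumors, 9 of the 45 pairs reached an r of 0.8, where 2.67% of all gene pairs do, and 1 of them, the Hsp70 pair, had an adjusted p under 0.05 (exact permutation test). *Jun* and *Junb* went from -0.136 over 10 tumors (adjusted p = 0.854, permutation test) to 0.903 over 7 (adjusted p = 0.0744, exact permutation test). In deposited FPKM, *Ldha*-null tumor 1 was near the *Jun* median (48.0 beside 42.2) and lowest in *Junb*. On the log2 CPM behind r, it was 1 of the 2 tumors farthest from the *Jun* median. *Ldha*-null tumor 3 and wild-type tumor 5 were low in *Jun* (29.7 and 33.9 FPKM) and highest in *Junb*. *Dusp1* and *Hspa1a* changed sign as well, to 0.341. *Fos* with *Hspa1a* and with *Hspa1b* stayed below 0, at -0.139 and -0.204. The count of 4 pairs over 10 tumors became 7 without *Ldha*-null tumor 1 alone.

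**Figure D4:**
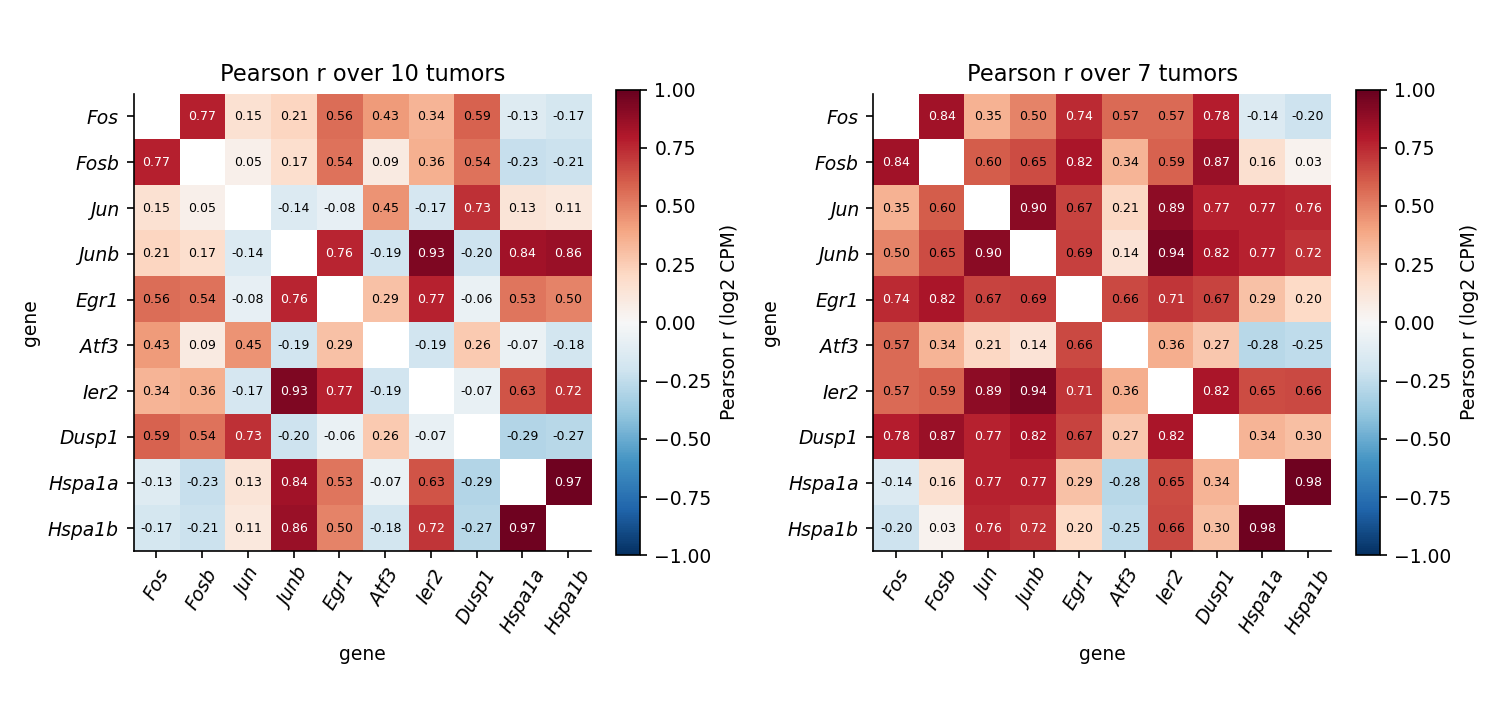
Pearson r of each pair of genes on log2 CPM, over 10 tumors (left) and over the 7 tumors rich in *Vim* (right), on a color scale from -1 to 1. At left a block of *Junb*, *Ier2* and the Hsp70 genes and the *Fos* with *Fosb* pair stand out, while at right most pairs outside *Atf3* and the Hsp70 rows are above 0.5.

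Outside the members, few genes followed *Fos*. An r of at least 0.8 with *Fos* was reached by 3 of 15175 genes (0.0198%), and the 5 most like it were *Gm16897* (0.860), *Gm26621* (0.809), *St6galnac3* (0.804), *Eme2* (0.798) and *Gm15502* (0.792). *Gm16897*, the first, was at 0.0930 to 1.09 FPKM, a low level in every tumor. Of 31 other immediate early genes 0 reached 0.8, with r from -0.339 to 0.771 and a median of 0.133, beside 0.0005 over all genes. The highest was *Zfp36*, a protein that destabilizes short-lived messages, which ranked 8th and is named after its value was seen. It was at 9.59, 13.9, 28.2, 47.0 and 47.1 FPKM under the *Ldha*-null label and at 22.3, 30.0, 34.0, 37.2 and 20.9 FPKM among the wild types, lowest in the same *Ldha*-null tumors as *Fos*. For growth signalling, 0 of 12 genes induced by ERK reached 0.8, with r from -0.563 to 0.647 and a median of 0.064. The 12 upstream regulators had r of -0.364 to 0.424 with *Fos*, and the 21 heat shock and chaperone genes -0.475 to 0.303.

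*Hspa1a* had more company than *Fos*, but about as much as a pair of genes in general. An r of at least 0.8 was reached by 471 of 15175 genes (3.1%), where 2.73% of all pairs of tested genes do. Among the 5 most like it that are no members were *Anxa8* (0.987), *Slc22a23* (0.976), *Itpkc* (0.954) and *Osbpl2* (0.954), each highest in wild-type tumor 5. *Anxa8*, an annexin of stratified epithelia, was at 304 FPKM for *Ldha*-null tumor 3 and 508 in wild-type tumor 5, against 27.3 to 125 FPKM in the other 8, and over the 7 tumors its r was 0.946. *Slc22a23*, *Itpkc* and *Osbpl2* had r of 0.890, 0.863 and 0.851 over the 7 tumors. Of the 21 other heat shock and chaperone genes, 2 reached 0.8, with a median r of 0.227 beside -0.025 over all genes. They were *Hspd1*, the mitochondrial Hsp60 (0.895), and *Hspa4*, a nucleotide exchange partner of Hsp70 (0.844), both named after their values were seen. *Hspd1* was at 226 FPKM for *Ldha*-null tumor 3 and 219 in wild-type tumor 5, against 90.3 to 150 FPKM in the others. Of the other immediate early genes, *Arc* (0.946) and *Klf10* (0.834) passed 0.8 with *Hspa1a*, also named after the fact. For *Hspd1*, *Hspa4*, *Arc* and *Klf10*, r is given over all tumors only, with those 3 low in *Vim* included. *Arc*, a synaptic immediate early gene, was at 16.1 FPKM for *Ldha*-null tumor 3 and 24.4 in wild-type tumor 5, then at 8.73 in wild-type tumor 4 and 6.94 in *Ldha*-null tumor 4, with 0.312 to 3.38 FPKM in the other 6. The ERK list had r of -0.387 to 0.412 with *Hspa1a* and 0 of 12 past 0.8. The upstream regulators had a median r of 0.125 with *Hspa1a*.

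**Figure D5:**
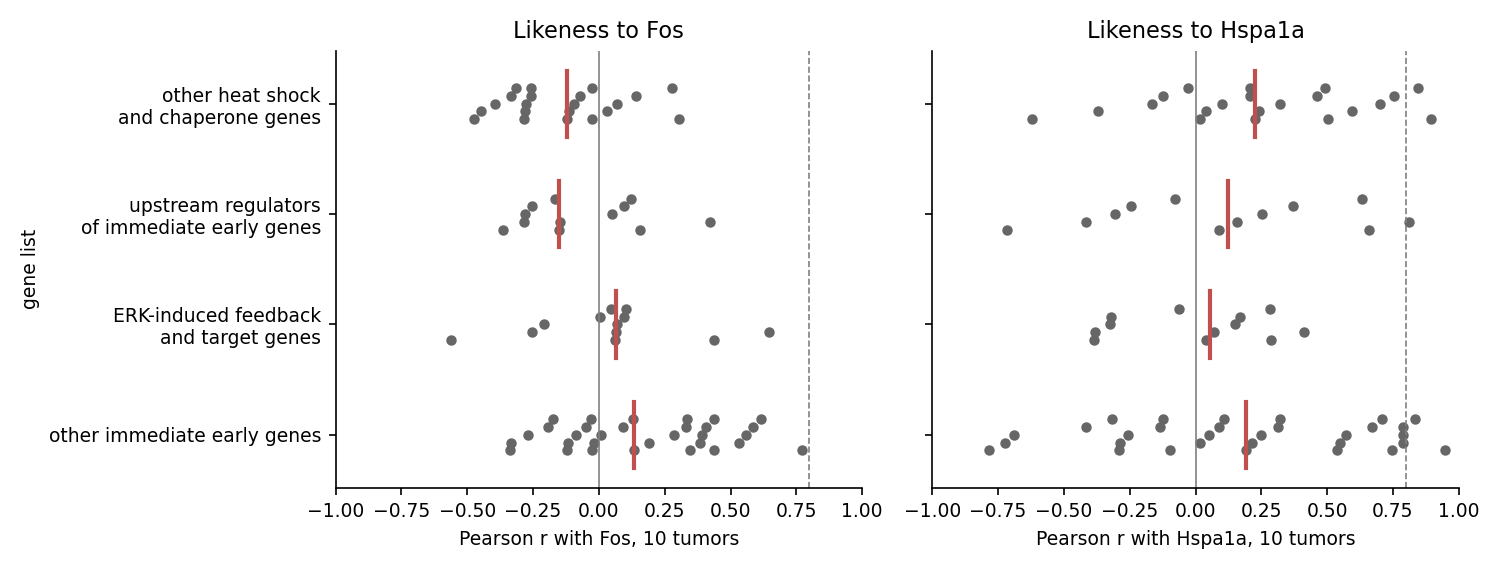
Pearson r of each gene of 4 lists with *Fos* (left) and with *Hspa1a* (right) over 10 tumors, 1 point per gene, with the median of each list as a red bar and a dashed line at 0.8. No listed gene passes the dashed line with *Fos*, and the medians lie between -0.151 and 0.227.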

How the data were processed

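Total RNA from fresh tumors had been extracted in Trizol LS, enriched on oligo(dT) beads and sequenced on a HiSeq2500. Per the processing notes, CASAVA 1.8 and TopHat2 (mm10) were used, and per the methods HTSeq in union mode. The deposited counts are whole fragments per gene made by the authors, and the deposited FPKM values were computed by the authors from those counts and a gene length. For TopHat2 and HTSeq no version, and no annotation release, was given in the sources used here. Both values were read for the 10 members in all 10 tumors, and 0 columns were left unmapped.

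The count test was that of edgeR 4.0.16 under R 4.3.3 (filterByExpr at 10 counts and a total of 15, TMM, quasi-likelihood F-test with no covariate, Benjamini-Hochberg over 15176 genes, threshold 0.05). Printed intervals cover 95%, by the standard error of that fit. Each member was compared as well over the 252 assignments of 5 of 10 tumors. Pairs were compared on log2 CPM (prior count 2) with NumPy 2.4.6 and SciPy 1.17.1, by Pearson r and Spearman rho with 100000 resamples, exact under 10 tumors, adjusted over 45 pairs. The 2 tumors farthest from the median of a pair's first gene were left out once. Depth was 12969508 to 17694201 counts per tumor, and the biological coefficient of variation was 63.4%. The closest of 20 within-genotype library pairs differed by a chi-square of 85.2 per gene, so all 10 were kept. The labels name no batch. P-values measure the spread between these tumors.

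The members, the gene lists, the tests and the alternatives were chosen with earlier results of these data known. The naming rule took the members, up to 3 genes of each list by smallest p, the 5 genes most like *Fos* and *Hspa1a*, *Fos* with each member, the Hsp70 and *Jun* with *Junb* pairs, the pairs of highest and lowest r, and *Ldha*, *Krt14*, *Vim* and *Ckm*. Marker lists of leukocytes, neutrophils and endothelium were also measured. Alternatives were DESeq2 1.42.0, other scalings, filters and units, limma 3.58.1, a replicate block, and leaving out tumors. Tests were tried on simulated data first. Some items of the named gene lists and of the tumor models are not reported here.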

Additional observations from a re-analysis of the deposited data

How the results depend on the processing

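The count of members that passed was 0 in all 19 alternatives, and DESeq2 called 1 gene of the whole table, which is no member. The labels do not say whether same-numbered tumors are pairs. The r of deviations between same-numbered tumors ran from -0.51 to 0.55, which cannot decide it because the tumors differ in tissue content. With a replicate block 0 genes and 0 members passed, 120 genes had an unadjusted p under 0.05, and the signs of *Dusp1* (-0.0674), *Hspa1a* (0.53) and *Hspa1b* (0.25) changed. None of the members' log2 fold changes had passed, and 32 of 190 alternative values had the other sign, with 0 for *Fosb*, *Jun*, *Egr1* and *Atf3*. limma-voom with sample quality weights gave *Junb* 0.0501, *Ier2* 0.0281, *Dusp1* -0.155 and *Hspa1a* 0.0716. limma on log2(FPKM + 1) gave *Dusp1* -0.232 and *Hspa1a* 0.0778. *Hspa1a* was at 0.00295 with DESeq2, 0.00255 with RLE factors, 0.0159 with upper-quartile factors and 0.0211 at a mean CPM of at least 5. Without the 3 tumors low in *Vim*, *Junb* was at 0.0806, *Ier2* at 0.0602 and *Hspa1a* at 0.00996. Leaving out each tumor in turn gave *Fos* -0.18 to 0.82, *Junb* -0.42 to 0.32, *Ier2* -0.29 to 0.0955, *Dusp1* -0.16 to 0.33, *Hspa1a* -0.78 to 1.10 and *Hspa1b* -0.94 to 0.58. The count of member pairs at r of at least 0.8 was 9 without the 3 tumors low in *Vim*, 7 without *Ldha*-null tumor 1 and 3 to 7 with each tumor left out in turn. It was 6 on log2(FPKM + 1), 6 without TMM and 4 by Spearman rho. On log2(FPKM + 1) and without TMM, *Fos* with *Fosb* passed (adjusted p = 0.0326 and 0.035, permutation test) and *Junb* with *Hspa1a* did not (adjusted p = 0.081 and 0.103, permutation test). *Jun* with *Junb* had a rho of 0.115 and, over the 7 tumors, an r of 0.903, and *Dusp1* with *Hspa1a* an r of 0.341. Leaving out each tumor gave r of -0.0468 to 0.37 for *Fos* with *Jun*, -0.28 to 0.0753 for *Fos* with *Hspa1a*, -0.31 to 0.0250 for *Fos* with *Hspa1b* and -0.25 to 0.15 for *Jun* with *Junb*. The cause of these changes was not tested. No value of a member in a genotype stood apart from its group by Dixon's criterion, in 20 groups of 5. No marker of leukocytes (sums of 15.5 to 564 FPKM), neutrophils (197 to 4901), endothelium (20.6 to 54.1) or mesenchyme (303 to 11162) reached an r of 0.8 with *Fos* or *Hspa1a*. With *Fos*, the T cell marker *Cd3e* had an r of 0.70, 29th of 15175 genes, and the 4 neutrophil markers had 0.391 to 0.449. With *Hspa1a*, the 6 leukocyte markers had -0.661 to -0.411. Their part in the results was not tested. Depth limits *Fosb* and *Hspa1a* most, at 32 and 56 counts in their lowest tumors.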
